A study of Mus musculus with 132 samples.

Results

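Small nucleolar RNA (snoRNA) genes were the rows of the count table whose symbol begins with Snord or Snora followed by a digit. Of 25146 gene rows, 107 met this rule: 71 Snord rows, which hold box C/D snoRNAs, and 36 Snora rows, which hold box H/ACA snoRNAs. Of these, 103 (68 Snord and 35 Snora) had 1 locus of their own and are described below. The other 4 rows did not measure a snoRNA. The Snora19 row spanned 35833562 bases and the Snord58b row combined loci of 2 chromosomes, whereas Snord116l1 and Snord116l2 shared 1 span and had no counts.

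SnoRNAs are short RNAs of the nucleolus that pair with ribosomal RNA and direct its chemical modification. Box C/D snoRNAs guide 2′-O-methylation by the methyltransferase fibrillarin, and box H/ACA snoRNAs guide pseudouridylation by dyskerin. A few box C/D snoRNAs, such as U3, U8, U13, U14 and U22, act in the cleavage of the ribosomal RNA precursor instead of, or as well as, in its modification. In vertebrates most snoRNAs lie in introns of host genes, often those of ribosomal proteins or of noncoding RNAs named small nucleolar RNA host genes (Snhg). They are trimmed from the spliced-out intron, carry no poly(A) tail and outlast the rest of it.

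Poly(A)-minus RNA-seq of 23 libraries from the 129/Ola mouse embryonic stem cell (mESC) line E14-TG2a and its derivatives was used. Undifferentiated wild-type mESCs (day 0, LIF medium) gave 2 libraries, labelled technical replicates of a single culture. Flk1+ mesoderm (day 4) and CD41+ hematopoietic progenitor cells (HPCs, day 7) were obtained in serum-free medium. BMP4 was given from the start and bFGF and Activin A on the day before the Flk1+ sort, and SCF and VEGF only to the sorted cells on their way to HPCs. Mesoderm comprised 3 wild-type, 3 P1-CTCF-KO and 3 P2-CTCF-KO libraries, and HPCs comprised 4, 3 and 5, respectively. The KO lines were CRISPR-Cas9 clones, 3 per genotype, which lacked the CTCF site next to the distal (P1) or the proximal (P2) promoter of *Runx1*. The HPC libraries of the wild-type clone B9.3 and the P2-CTCF-KO clones D10.1 and D2.1 were duplicated, so 3 clones entered those groups more than once. Of these cells, only the undifferentiated mESCs had their ribosomal RNA removed before library construction, so stage and library preparation cannot be told apart in any comparison with them. Their libraries are labelled E14, whereas those of wild-type mesoderm and HPCs are labelled C6.1, C8.1 and B9.3, so the line by label differs there too. In bulk libraries, fewer cells of a type and less RNA per cell also cannot be told apart.

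The 103 rows were checked for the sequence boxes that name the classes, on the transcribed strand of the mm9 (NCBIM37) genome. CTGA, the D box, lay in the last 12 bases of 64 of 68 Snord rows (94.1%) and of 2 of 35 Snora rows (5.7%), beside 4.4% and 8.6% of the windows of the same length directly upstream. ACA lay in the last 8 bases of 33 of 35 Snora rows (94.3%) and of 2 Snord rows (2.9%), beside 5.7% and 0.0% of the upstream windows. TGATG, the core of the C box, lay in the first 20 bases of 27 Snord rows (39.7%), beside 2.9% of the upstream windows, and of 0 Snora rows, beside 8.6% of theirs. Each row and window was read on the row's own strand only. The rows were short, with a median of 69 bases (46 to 222) for Snord and 121 bases (62 to 199) for Snora. By GENCODE vM1, 61 rows lay in an intron on their own strand, 20 touched an exon of a retained-intron transcript alone, 15 touched another exon and 7 lay outside the transcripts listed.

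The sequences of the rows on which the results turned are given 5′ to 3′ from mm9, with matches to TGATG and CTGA (Snord) or ACA (Snora) in capitals where they lay in the end windows just given (the last ACA of a row). Matches elsewhere in a row are left in lower case. The first 4 come from introns of *Rpl13a*, a gene of the large ribosomal subunit on the minus strand of chromosome 7: Snord32a (chr7:52382752-52382833), Snord33 (chr7:52382233-52382315), Snord34 (chr7:52381972-52382038) and Snord35a (chr7:52381716-52381805). All are guides of 2′-O-methylation, and the first 3 were among the 8 Snord rows with the most counts.
Snord32a: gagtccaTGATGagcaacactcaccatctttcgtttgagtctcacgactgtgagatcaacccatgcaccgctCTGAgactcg
Snord33: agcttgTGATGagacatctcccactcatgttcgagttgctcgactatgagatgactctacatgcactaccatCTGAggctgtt
Snord34: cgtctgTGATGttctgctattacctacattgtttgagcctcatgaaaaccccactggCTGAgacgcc
Snord35a: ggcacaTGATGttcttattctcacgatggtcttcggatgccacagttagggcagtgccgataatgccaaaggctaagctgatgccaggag

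Snord22 (U22, chr19:8800355-8800481, plus strand, in *Snhg1*) and Snord118 (U8, chr11:68886927-68887064, plus strand, with no host row) are shown because they act in ribosomal RNA maturation and were not called lower at any later stage.
Snord22: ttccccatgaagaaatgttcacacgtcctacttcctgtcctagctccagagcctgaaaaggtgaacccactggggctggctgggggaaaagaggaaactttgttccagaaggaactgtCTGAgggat
Snord118: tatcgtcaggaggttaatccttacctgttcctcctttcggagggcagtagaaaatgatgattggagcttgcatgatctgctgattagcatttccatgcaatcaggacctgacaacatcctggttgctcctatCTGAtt

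Snora78 (chr17:24856620-24856777, minus strand, in *Snhg9*), Snora17 (chr2:26494709-26494841, minus strand, in *Snhg7*) and Snora24 (chr3:123210854-123210984, minus strand, in *Snhg8*) represent the H/ACA class.
Snora78: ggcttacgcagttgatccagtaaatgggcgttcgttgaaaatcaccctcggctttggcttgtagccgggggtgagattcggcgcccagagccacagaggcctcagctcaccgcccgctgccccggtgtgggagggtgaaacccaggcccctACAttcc
Snora17: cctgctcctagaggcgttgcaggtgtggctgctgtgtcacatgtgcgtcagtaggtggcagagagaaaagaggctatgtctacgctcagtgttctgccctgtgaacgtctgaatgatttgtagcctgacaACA
Snora24: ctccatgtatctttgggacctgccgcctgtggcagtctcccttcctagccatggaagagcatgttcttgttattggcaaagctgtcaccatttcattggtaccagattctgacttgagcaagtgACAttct

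The host of a snoRNA was the shortest row on the same strand that contained it. A host was found for 99 rows (64 Snord and 35 Snora) in 72 host rows. Ribosomal protein genes held 30 snoRNAs in 21 rows, and Snhg genes with *Gas5* held 17 in 11 rows. *Rpl13a* and *Snhg12* held 4 snoRNAs each, and 20 host rows held 2 or more, 47 snoRNAs in all. Snord13, Snord89, Snord104 and Snord118 had no host row. Reads over exons and introns were counted for each row, and a read within a snoRNA was counted for its host too: among 742 pairs of nested rows on the same strand, the inner row never exceeded the outer one, whereas on opposite strands it did in 44 of 82 pairs.

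SnoRNA reads were few in every library after day 0. Library totals were 20532600 to 24283300 counts at day 0, 18233700 to 24407000 in mesoderm and 7805100 to 13513700 in HPCs, of which 68.1% to 76.3%, 88.8% to 91.0% and 87.8% to 89.1% lay in ribosomal RNA rows or rows of several loci. The 103 snoRNA rows together held 8301 and 4154 counts in the 2 libraries of undifferentiated mESCs. They held 118 to 303 counts in the 9 mesoderm libraries and 39 to 122 in the 12 HPC libraries. Per library this was a median of 53 and 21 counts per snoRNA at day 0, 1 or 2 in mesoderm and 0 or 1 in HPCs, so few single snoRNAs could be compared after day 0. Snora35 had no counts in any library, which allows up to 3 counts per library.

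Levels are given as CPM, the counts scaled to library sizes that TMM, a normalization by trimmed means, set over all 23 libraries. The 103 rows summed to 43.0 ± 3.23 CPM (SD, n = 2) in undifferentiated mESCs, 13.5 ± 0.730 (n = 3) in wild-type mesoderm and 8.27 ± 3.0 (n = 4) in wild-type HPCs. Every library of undifferentiated mESCs (40.7 and 45.3 CPM) lay above every mesoderm library (12.5 to 21.5), and the mesoderm libraries overlapped with HPCs (5.07 to 12.9) at their lower end. Wild-type means fell 3.19-fold from undifferentiated mESCs to mesoderm and 1.63-fold from mesoderm to HPCs. The host rows, snoRNA reads included, fell less, 1.52-fold and 1.34-fold. The size of these folds depended on the scale: scaled to all counts of a library, the snoRNA sum was 28.5-fold higher at day 0 than in mesoderm, and scaled to the counts outside ribosomal RNA and multi-locus rows it was 10.5-fold higher. Between mesoderm and HPCs those scales gave 1.10-fold and 1.23-fold, and the ratio of host sums, mesoderm over HPCs, turned from 1.34 on the TMM scale to 0.877 on that of all counts.

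The 2 classes moved side by side. Snord rows summed to 27.7 ± 2.17 CPM (n = 2), 8.63 ± 0.716 (n = 3) and 5.10 ± 1.41 (n = 4) in wild-type undifferentiated mESCs, mesoderm and HPCs, and Snora rows to 15.4 ± 1.06, 4.86 ± 1.07 and 3.17 ± 1.74. Snord rows therefore took 64.2% and 64.5% of snoRNA counts at day 0, a median of 65.1% in mesoderm (56.3% to 71.7%) and 63.9% in HPCs (53.7% to 69.5%). From undifferentiated mESCs to mesoderm the wild-type sums fell 3.21-fold for Snord and 3.16-fold for Snora. From mesoderm to HPCs they fell 1.69-fold and 1.53-fold, and the Snora libraries of those groups overlapped. P1-CTCF-KO mesoderm had Snord sums of 8.73, 9.98 and 11.6 CPM and Snora sums of 4.62 ± 1.13 (n = 3), and P2-CTCF-KO mesoderm had 11.1 ± 0.924 and 7.26 ± 1.96 (n = 3). In HPCs they were 4.43 ± 0.936 and 2.53 ± 0.335 CPM for P1-CTCF-KO (n = 3) and 5.81 ± 2.28 and 3.17 ± 0.670 for P2-CTCF-KO (n = 5). Sums over the members were not tested.

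**Figure D1:**
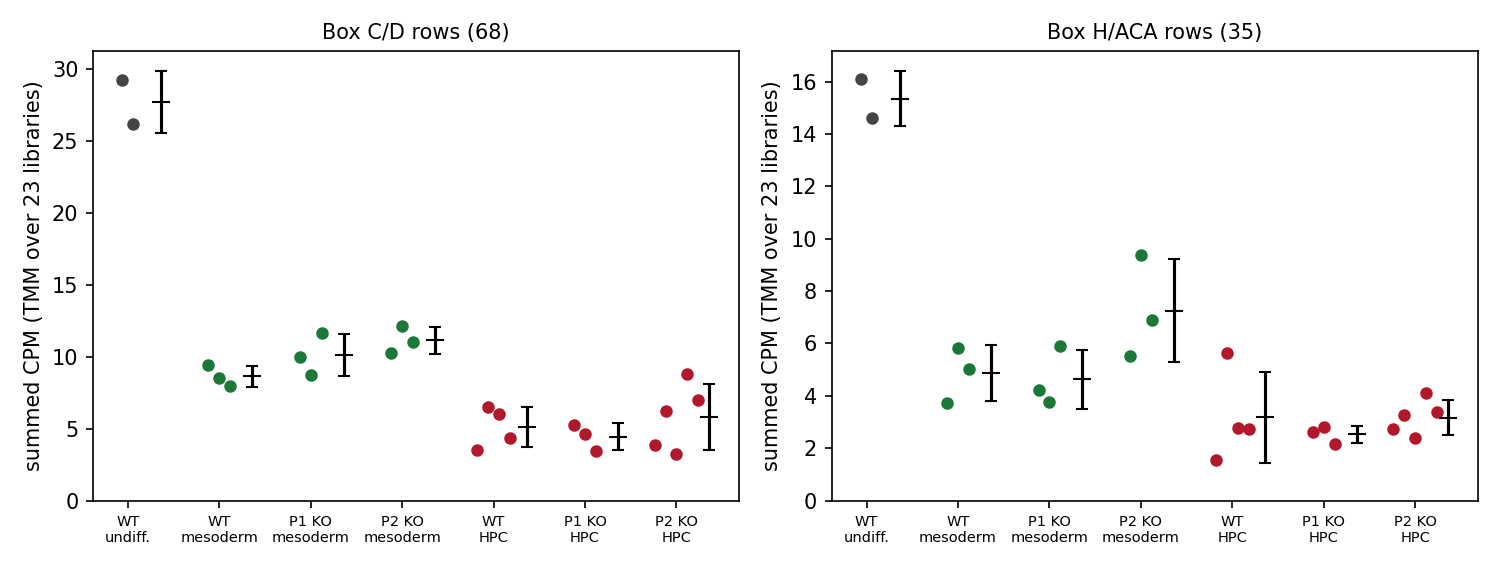
Summed CPM (TMM scale over 23 libraries, linear axis) of the 68 Snord rows (left) and the 35 Snora rows (right) by group, with 1 point per library and the mean ± SD to its right. Both libraries of undifferentiated mESCs lay above all other libraries in both classes, and wild-type mesoderm and HPC Snora libraries overlapped.

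A few rows carried much of the signal. Snord33 alone held 1353 of 12455 snoRNA counts (10.9%) in undifferentiated mESCs, and the 5 leading rows (Snord33, Snord34, Snora78, Snora74a and Snord49b) held 28.5%. In mesoderm Snord22 led, with 144 of 2073 counts (6.95%), followed by Snord33, Snora78, Snord17 and Snord34, which together with it held 27.7%. The same 5 rows led in HPCs and held 23.1% of 941 counts, with 56 counts in Snord22. Snora78 led the Snora rows at every stage, with 436, 129 and 44 counts in undifferentiated mESCs, mesoderm and HPCs.

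The share of host-row counts that lay inside the snoRNAs does not depend on the scaling of libraries. In undifferentiated mESCs it was 6.45% (95% exact binomial interval 6.32% to 6.59%) and 6.09% (5.91% to 6.28%). In mesoderm it was 2.95 ± 0.161% in wild-type (n = 3), 2.96 ± 0.570% in P1-CTCF-KO (n = 3) and 3.31 ± 0.272% in P2-CTCF-KO (n = 3). In HPCs it was 2.36 ± 0.585% (n = 4), 2.20 ± 0.412% (n = 3) and 2.26 ± 0.417% (n = 5). Both libraries of undifferentiated mESCs lay above the other 21, which ranged from 1.67% to 3.62%, and the 3 genotypes overlapped within each stage. Intervals cover counting error only.

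The snoRNAs held more reads than their length accounted for. Host counts spread evenly over each host would have placed fewer reads in the snoRNAs than were observed in all 23 libraries: the ratio of observed to expected counts was 2.98 and 2.65 in undifferentiated mESCs, 1.60 to 2.34 in mesoderm and 1.27 to 2.06 in HPCs. The group means for wild-type cells were 2.81 ± 0.232 (n = 2), 2.00 ± 0.296 (n = 3) and 1.87 ± 0.275 (n = 4). By class, wild-type Snord ratios were 3.09 ± 0.148, 2.16 ± 0.458 and 1.95 ± 0.231, and Snora ratios were 2.44 ± 0.306, 1.77 ± 0.0480 and 1.75 ± 0.452. The Snord mean exceeded the Snora mean at each stage, by less than the sum of their SDs after day 0. Over pooled libraries, 88 of 99 hosted snoRNAs exceeded their length share in undifferentiated mESCs, 69 in mesoderm and 76 in HPCs, with medians over snoRNAs of 2.46, 1.65 and 1.91 times that share.

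**Figure D2:**
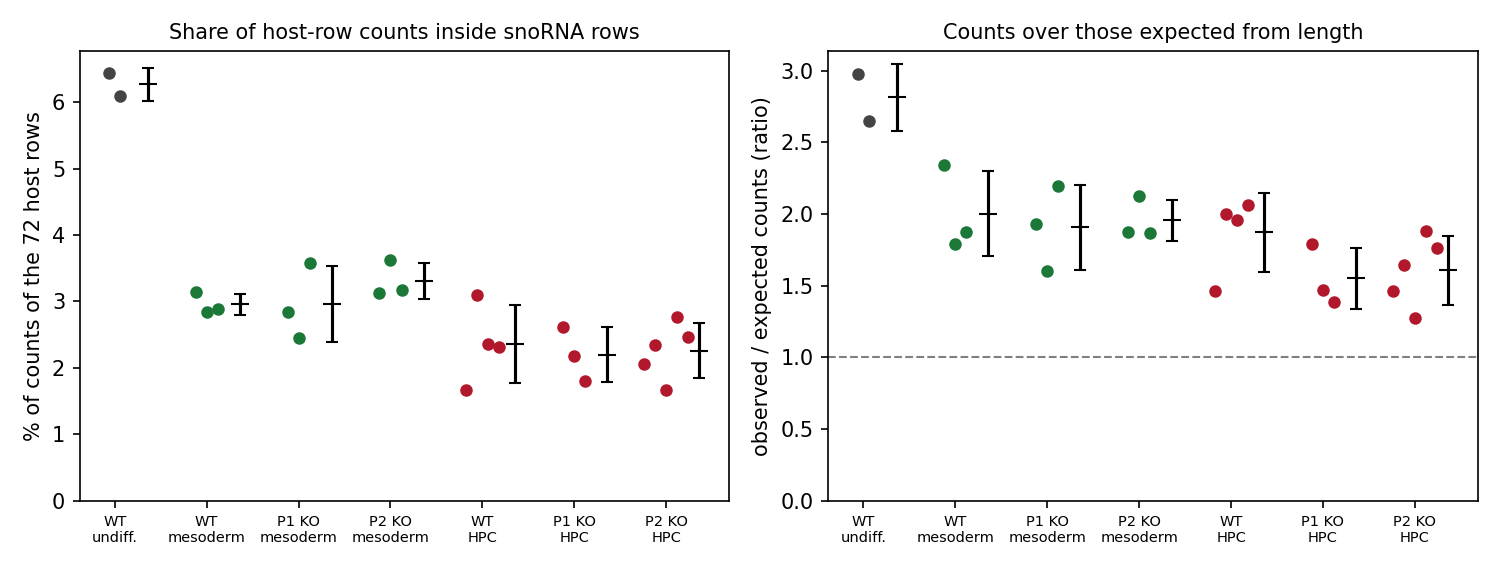
Left, percentage of the counts of the 72 host rows that lay inside their snoRNA rows. Right, ratio of snoRNA counts to those expected from snoRNA length and host counts, with the dashed line at 1. Each point is 1 library and the bar beside it is the group mean ± SD. All libraries lay above 1, and the 2 libraries of undifferentiated mESCs were highest in both plots.

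Among single snoRNAs, 45 of 64 hosted Snord rows and 29 of 35 hosted Snora rows took a lower share of their host's counts in mesoderm than in undifferentiated mESCs. In HPCs 47 and 27 rows did so. Between mesoderm and HPCs no such direction was seen, with 33 Snord rows lower and 29 higher in HPCs, and 16 Snora rows lower and 18 higher. After day 0 the snoRNAs had on average 0.379 to 2.94 counts per library, so single shares are imprecise.

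**Figure D3:**
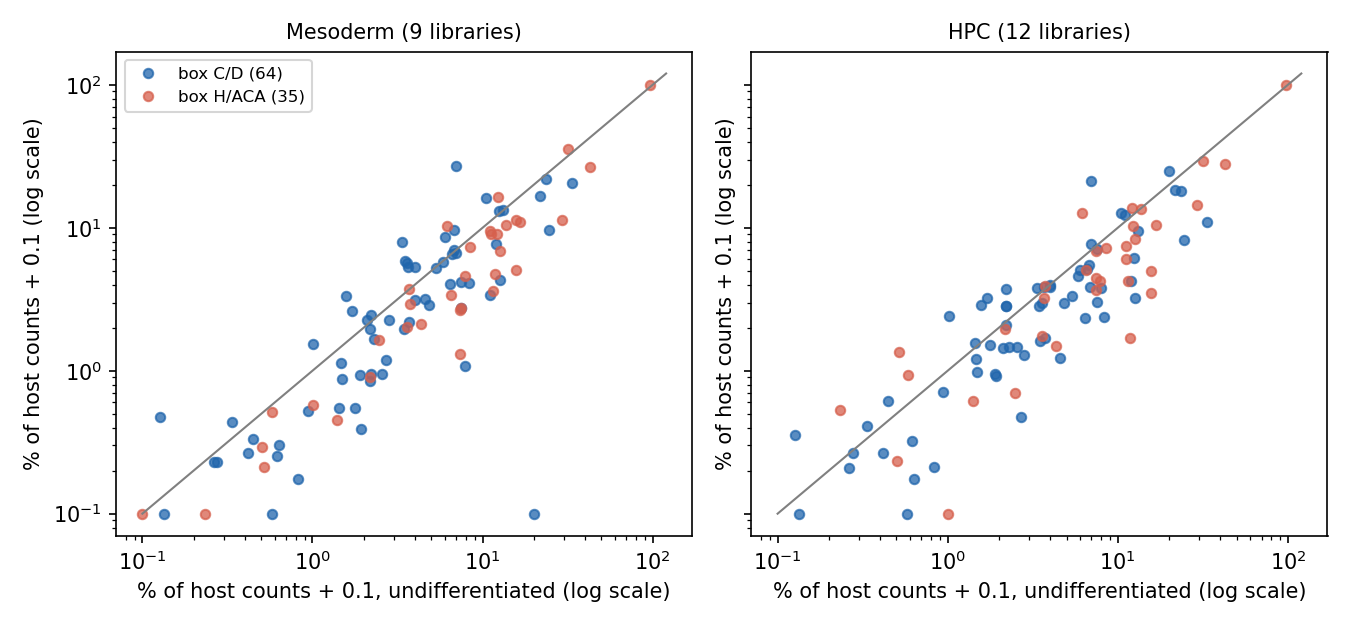
Share of the host's counts (% + 0.1, log axes) taken by each hosted snoRNA over the pooled mesoderm (left) or HPC (right) libraries against that in undifferentiated mESCs. Points are 64 Snord (blue) and 35 Snora (red) rows, and the line marks equal shares. Of the points, 74 of 99 lay below the line in mesoderm as in HPCs.

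The hosts were split by kind. In ribosomal protein rows, snoRNAs took 13.9% and 15.9% of host counts in undifferentiated mESCs, a median of 8.89% (5.74% to 11.9%) in mesoderm and 5.94% (3.1% to 8.57%) in HPCs. *Rpl13a* alone held 2692 of the 5543 snoRNA counts of this kind at day 0. Without it, a choice made after its values were seen, the shares were 8.21% and 9.1%, 5.38% (4.27% to 8.56%) and 4.34% (1.57% to 6.61%), and day 0 and mesoderm overlapped. Over all hosts without *Rpl13a* they were 4.98% and 5.07%, 2.66% (2.24% to 3.15%) and 2.05% (1.49% to 2.85%), and day 0 lay above every other library. In Snhg rows and *Gas5* the shares overlapped between all stages: 12.1% and 14.8% at day 0, a median of 16.2% (11.2% to 17.8%) in mesoderm and 12.7% (6.45% to 17.2%) in HPCs. In the other 40 host rows they were 2.73% and 3.01%, then 1.33% (0.992% to 1.48%) and 1.18% (0.903% to 1.40%).

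*Rpl13a*, the host of Snord32a, Snord33, Snord34 and Snord35a, had the highest snoRNA share among ribosomal protein rows at day 0. Its snoRNAs held 1886 of 2606 and 806 of 1444 counts of the row in undifferentiated mESCs (72.4% and 55.8%). In mesoderm they held a median of 44.1% (26.9% to 51.5%) of the row, and in HPCs 24.5% (2.63% to 40%), so neither later stage overlapped with day 0. Snord33 and Snord34, 2.61% and 2.1% of the row's length, held 33.4% and 24.4% of its counts at day 0, 20.5% and 9.48% over the mesoderm libraries and 11.0% and 8.1% over the HPC libraries. Snord35a, the fourth guide in the gene, stayed at or below its length share of 2.83%, with 2.72%, 2.16% and 1.19%.

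*Snhg7*, the host of Snora17 and Snora43, had 36.5% and 39.0% of its counts in them at day 0, a median of 15.9% (10% to 26.1%) in mesoderm and 22.2% (0% to 44.4%) in HPCs. In *Snhg12*, with Snora44, Snora61, Snora16a and Snord99, the shares were alike at all stages, with 29.3% and 36.9% at day 0 and medians of 32.4% and 33.3% in mesoderm and HPCs. *Snhg1* went the other way: Snord22 took 4.13% and 11.8% of its counts at day 0 and a median of 22.9% (17.5% to 43.1%) in mesoderm and 22.8% (4% to 75%) in HPCs. *Snhg9* was its snoRNA at every stage, as Snora78 held 436 of 450 counts of the row at day 0, 129 of 130 in mesoderm and 44 of 44 in HPCs.

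**Figure D4:**
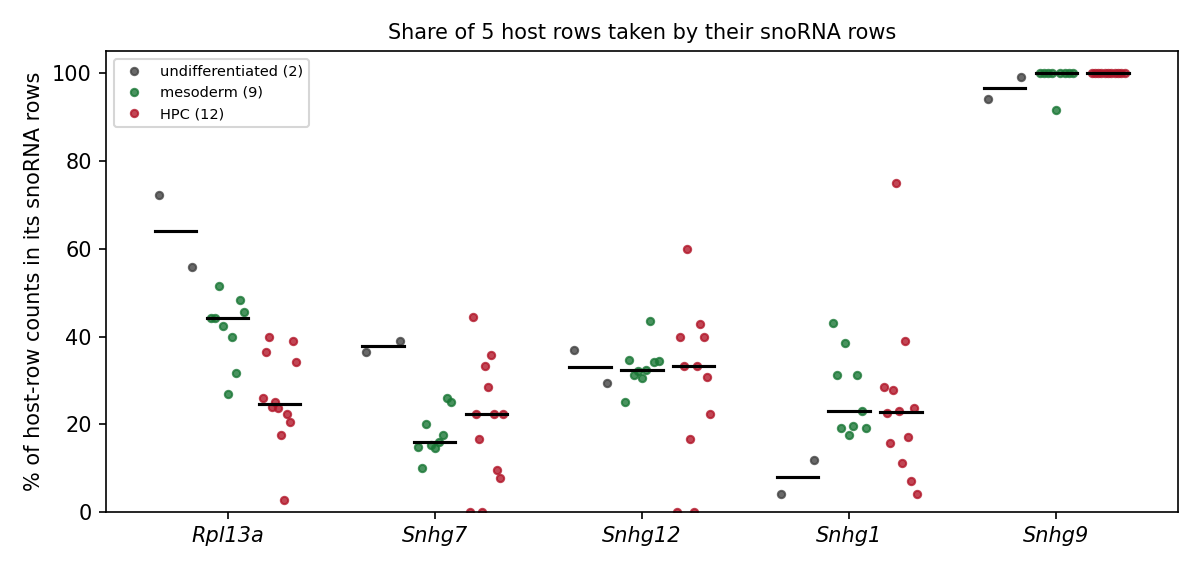
Percentage of the counts of 5 host rows that lay in their snoRNA rows, with 1 point per library (2 of undifferentiated mESCs, 9 of mesoderm and 12 of HPCs) and a line at the median. The *Rpl13a* share was lower at each later stage, that of *Snhg12* had medians of 33.1%, 32.4% and 33.3%, and that of *Snhg1* was higher in all 9 mesoderm libraries than at day 0.

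The rows were also described by length. Rows of up to 80 bases (50 rows) summed to 17.1 and 19.3 CPM at day 0, a median of 5.83 CPM in mesoderm (4.32 to 7.41) and 2.67 in HPCs (1.84 to 4.96). Rows of 81 to 120 bases (30 rows) summed to 9.61 and 13.2 CPM, then 3.16 (2.06 to 5.11) and 1.98 (1.16 to 3.06). Rows over 120 bases (23 rows) summed to 12.8 and 14.1 CPM, then 6.34 (5.02 to 9.66) and 3.41 (1.65 to 5.63). Against their hosts, the short rows were at 2.99 and 3.25 times their length share at day 0 and at a median of 1.79 times in mesoderm. The rows of 81 to 120 bases were at 2.41 and 3.24 times at day 0 and at 1.67 times (1.0 to 1.98) in mesoderm. The long rows were at 2.47 and 2.49 times at day 0 and at 2.32 times (1.86 to 3.06) in mesoderm, where they overlapped with day 0 and the shorter rows did not (1.61 to 2.25 for those of up to 80 bases). Length goes along with class and kind of host, and their parts cannot be told apart here.

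Single snoRNAs were tested with edgeR's quasi-likelihood test over all genes that passed a filter on low counts, and a call required a Benjamini-Hochberg adjusted p under 0.05 together with a log2 fold change beyond 1 in either direction. In the wild-type fit of 9 libraries, 77 of 103 snoRNAs passed the filter, most of them through the deep libraries of day 0, and the other 26 did not. Since a row that passes through the group where it is high has to differ, the counts that follow describe these 77 rows and support nothing further. In mesoderm against undifferentiated mESCs, 22 fell and 0 rose, where 13.7% of all 12899 genes tested were called lower and 24.4% in either direction. This count was 2 and 6 without the first or the second library of undifferentiated mESCs, and 13 and 12 without the mesoderm libraries B9.3 and C8.1. In HPCs against undifferentiated mESCs, 49 fell and 0 rose, where 25% of genes were called lower and 41.9% in either direction. It was 16 and 20 without the first or the second day 0 library, and 31 and 32 without the HPC libraries B9.3 and C8.1. In HPCs against mesoderm, 2 fell and 0 rose, where 12.5% of genes were called lower and 23.3% in either direction. Of these 2, 1 was called without mesoderm library B9.3 or C8.1. With the clone as a block in the wild-type mesoderm and HPC libraries alone, 0 snoRNAs passed the filter, and 2 were called with no filter.

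With no filter on low counts, the median log2 fold change of 68 Snord and 34 Snora rows in mesoderm against undifferentiated mESCs was -1.87 and -1.80, beside -0.35 over all genes, and in HPCs against mesoderm -0.49 and -0.21, beside 0.00.

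Outside the libraries of day 0, 5 snoRNAs passed the filter in any fit: Snord17, Snord22, Snord32a, Snord33 and Snora78. Every other row entered the comparisons with day 0 through those 2 technical replicates alone, so its log2 fold change from day 0 is given with its SE as a description and with no p.

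Of the 4 guides from *Rpl13a*, Snord33 was called in both steps. It had 951 and 402 counts in undifferentiated mESCs, 23, 7 and 17 in wild-type mesoderm and 1, 3, 7 and 4 in wild-type HPCs. Its CPM were 4.57 ± 0.883, 1.07 ± 0.246 and 0.373 ± 0.248, with no overlap between the 3 groups. It fell by 2.07 on the log2 scale (SE 0.38, adjusted p = 0.0027) from undifferentiated mESCs to mesoderm and by 1.58 (SE 0.47, adjusted p = 0.025) from mesoderm to HPCs. Snord34 had 699 and 290 counts, then 8, 4 and 3, and then 0, 4, 2 and 2. Its log2 fold change from day 0 to mesoderm was -3.20 (SE 0.52). Mesoderm and HPC libraries overlapped in the second step, with a log2 fold change of -0.87 (SE 0.73, adjusted p = 0.42). The *Rpl13a* row fell by 1.77 (SE 0.23, adjusted p = 0.00034) in the first step, and in the second its log2 fold change of -0.78 (SE 0.21, adjusted p = 0.018) lay within the fold limit. Host rows, here and below, include the reads of their snoRNAs and were not tested without them. In the *Rpl13a* row these were 2692 of 4050 counts at day 0.

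Snord49b, a methylation guide in 2410006H16Rik, had 256 and 128 counts at day 0, 6, 4 and 7 in wild-type mesoderm and 2, 2, 0 and 5 in wild-type HPCs. From day 0 to mesoderm its log2 fold change was -1.70 (SE 0.49), and its host fell by 1.69 (SE 0.38, adjusted p = 0.0078). Snord2, which shares *Eif4a2* with Snora81, had 158 and 80 counts, then 6, 2 and 0, and then 2, 2, 4 and 0, and its log2 fold change to mesoderm was -2.10 (SE 0.74). Snord15b, in *Rps3*, was at -1.21 (SE 0.61) and Snord32a at -1.09 (SE 0.65, adjusted p = 0.23).

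The snoRNAs known for a part in cleavage of the ribosomal RNA precursor differed in how far their counts lay below those of day 0. Snord14c (U14, in *Hspa8*) had 126 and 59 counts at day 0, 1, 1 and 1 in wild-type mesoderm and 0, 0, 0 and 1 in wild-type HPCs. The log2 fold change to mesoderm was -3.10 (SE 0.62), on 3 reads in mesoderm. Snord22 (U22) had 71 and 113 counts at day 0, 25, 10 and 10 in mesoderm and 2, 7, 3 and 5 in HPCs, and its CPM of 0.388 and 1.11 at day 0 overlapped with 0.600 to 1.45 in mesoderm. Its log2 fold changes were 0.54 (SE 0.57, adjusted p = 0.51) to mesoderm and -1.36 (SE 0.62, adjusted p = 0.13) from there to HPCs, while its host *Snhg1* fell by 1.46 (SE 0.44, adjusted p = 0.029) in the first step. Snord118 (U8), transcribed from its own promoter, had 19 and 21 counts at day 0, 3, 1 and 5 in mesoderm and 1, 0, 1 and 2 in HPCs, with log2 fold changes of 0.49 (SE 0.62) to mesoderm and -1.12 (SE 0.83, adjusted p = 0.35) from there to HPCs. Snord13 (U13) had 10 and 4 counts at day 0 and at most 2 in any other library, and was not tested. The U3 rows Rnu3a and Rnu73b, which the rule leaves out, were at -1.72 (SE 0.86, adjusted p = 0.16) and -1.80 (SE 1.0) in mesoderm against undifferentiated mESCs.

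Snord17, a methylation guide in *Snx5* and the longest row at 222 bases, also differed little from day 0, with 116 and 88 counts, then 13, 1 and 12, and then 4, 4, 4 and 1. Its log2 fold change to mesoderm was -0.35 (SE 0.52, adjusted p = 0.65). The orphan Snord64, from the imprinted Snrpn region on chromosome 7 and within *Snhg14*, had 35 and 32 counts at day 0 and at most 2 in any other library. Its log2 fold change to mesoderm was -2.30 (SE 0.90), and that from undifferentiated mESCs to HPCs was -2.30 (SE 0.88).

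Among the pseudouridylation guides, Snora17 had 224 and 152 counts at day 0, 4, 1 and 6 in wild-type mesoderm and 0, 1, 1 and 1 in wild-type HPCs. Its log2 fold change to mesoderm was -2.39 (SE 0.47), and its host *Snhg7* fell by 1.16 (SE 0.33, adjusted p = 0.024). Snora24 had 173 and 82 counts, then 0, 2 and 1, and then 2, 3, 2 and 1. Its log2 fold change to mesoderm was -3.53 (SE 0.71), and that of its host *Snhg8*, which also entered through day 0 alone, was -2.52 (SE 0.63). Snora3, in *Rpl27a*, had 235 and 51 counts, then 0, 0 and 2, and then 0, 2, 1 and 2, with a log2 fold change to mesoderm of -4.17 (SE 0.92). Snora33, in *Rps12*, was at -2.86 (SE 0.82), and Snora81, in *Eif4a2*, at -1.92 (SE 0.57).

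Snora78 was not called in either wild-type step. It had 195 and 241 counts at day 0, 8, 7 and 19 in wild-type mesoderm and 3, 4, 3 and 4 in wild-type HPCs, with log2 fold changes of -1.07 (SE 0.45, adjusted p = 0.095) and -1.25 (SE 0.53, adjusted p = 0.11) in the 2 steps. Its CPM of 1.06 and 2.36 at day 0 overlapped with 0.464 to 1.14 in mesoderm. Snora74a, in *Snhg4*, had 257 and 131 counts, then 7, 9 and 3, and then 3, 2, 1 and 3, with -1.47 (SE 0.51) in the first step and -1.16 (SE 0.66, adjusted p = 0.22) in the second. Snora61, in *Snhg12*, was at -1.02 (SE 0.72) in mesoderm against undifferentiated mESCs.

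The other row called from mesoderm to HPCs beside Snord33 was Snora47, in an intron of *Zbed3*. It had 60 and 23 counts at day 0, 4, 2 and 3 in wild-type mesoderm and 0 in all 4 wild-type HPC libraries. Its pooled mesoderm level, from 9 reads taken as exact, was 2.96 times the floor of 3 counts over the 4 HPC libraries. Counting error on those 9 reads is not in this fold, so it is no lower bound. The edgeR test gave an adjusted p of 0.019 for this row, which passed the filter through day 0 alone. *Zbed3* itself was at -0.87 (SE 0.36, adjusted p = 0.094). The P1-CTCF-KO HPC libraries also had 0 counts of Snora47, whereas 3 of 5 P2-CTCF-KO HPC libraries had 1 to 3, so no genotype difference can be read at this depth.

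In KO cells the stage step was tested in a fit of 21 libraries without day 0, in which Snord22, Snord33 and Snora78 alone passed the filter. Since no snoRNA passed it in the HPC libraries alone, these 3 rows entered mostly through mesoderm, where their counts were higher. Calls of a fall from mesoderm therefore describe these 3 rows and support nothing further. In P2-CTCF-KO, 2 of these 3 fell from mesoderm to HPCs, where 11.7% of all 9170 genes tested were called lower and 28.2% in either direction. Snora78 had 17, 17 and 15 counts in P2-CTCF-KO mesoderm and 2, 2, 0, 8 and 5 in HPCs, and its CPM of 1.11 to 1.60 and 0 to 0.845 did not overlap. It fell by 1.94 (SE 0.61, adjusted p = 0.018). Snord33 had 10, 17 and 21 counts and then 1, 6, 3, 8 and 3, with CPM of 0.689 to 1.60 and 0.0969 to 0.845, which overlapped, and it fell by 1.66 (SE 0.53, adjusted p = 0.019). Of these 2 calls, 0 were made without mesoderm library D2.1 and 1 without E9.1. With the clone as a block in the P2-CTCF-KO libraries alone, 1 snoRNA was tested and 0 were called.

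In P1-CTCF-KO, 0 of the 3 were called lower, where 16.1% of genes were (32.6% in either direction), and 0 of the 3 had an unadjusted p under 0.05. Snora78 had 13, 11 and 22 counts in mesoderm and 5, 6 and 2 in HPCs (log2 fold change -0.50, SE 0.71, adjusted p = 0.60). Snord33 had 15, 13 and 20 and then 2, 6 and 2 (-0.98, SE 0.65, adjusted p = 0.24). The steps of KO and wild-type cells were compared directly by an interaction term, which called 0 of the 3 snoRNAs for either genotype, where 0% (P1-CTCF-KO) and 0.0218% (P2-CTCF-KO) of genes were called. For Snora78 the difference from the wild-type step was 0.76 (SE 0.98, adjusted p = 1) in P1-CTCF-KO and -0.68 (SE 0.94, adjusted p = 0.98) in P2-CTCF-KO.

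Genotypes were then compared within a stage, to ask whether deletion of either *Runx1* CTCF site went with a difference in snoRNAs. In mesoderm, 5 snoRNAs passed the filter (Snord17, Snord22, Snord32a, Snord33 and Snora78) and 0 were called against wild-type for either KO, where 0% (P1-CTCF-KO) and 0.0342% (P2-CTCF-KO) of 8778 genes were called. None of the 5 had an unadjusted p under 0.05 in either comparison. For P2-CTCF-KO the log2 fold changes lay between -0.08 (Snord22, SE 0.52) and 0.68 (Snora78, SE 0.48, adjusted p = 0.51). For P1-CTCF-KO they lay between -0.30 (Snord33, SE 0.42) and 0.34 (Snord17, SE 0.61). In HPCs 0 snoRNAs passed the filter in the fit of 12 libraries, so none was tested, and 0% of 7422 genes were called for either KO. DESeq2, run on rows that passed the same filter, called 0 snoRNAs in the mesoderm comparisons and had none to test in HPCs.

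The host rows, snoRNA reads included, could be tested more widely. In wild-type mesoderm against undifferentiated mESCs 35 of 70 tested hosts were called lower and 0 higher, with a median log2 fold change of -1.09, where 13.7% of all genes were called lower and 10.7% higher (median -0.35 with no filter). From mesoderm to HPCs 5 of 70 fell and 1 rose in wild-type cells in the fit of 9 libraries (median -0.60), where 12.5% of all genes were called lower and 10.8% higher. In the fit of 21 libraries 18 of 63 fell in P1-CTCF-KO (median -0.80) and 13 of 63 in P2-CTCF-KO (median -0.59), where 16.1% and 11.7% of genes did. In either, 0 rose, where 16.6% and 16.5% of genes did. A difference between the steps of KO and wild-type cells was called for 0 of 63 hosts in either genotype, where it was for 0% (P1-CTCF-KO) and 0.0218% (P2-CTCF-KO) of genes. *Snhg7* fell in all 3 genotypes, by 1.56 (SE 0.36, adjusted p = 0.0075), 1.71 (SE 0.41, adjusted p = 0.0033) and 1.53 (SE 0.32, adjusted p = 0.0010). In the 4 comparisons of a KO with wild-type at 1 stage, 0 host rows were called of 67 tested in mesoderm and 57 in HPCs. Of all genes, 0% (P1-CTCF-KO) and 0.0342% (P2-CTCF-KO) were called in mesoderm and 0% in HPCs for either KO.

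The genes for the proteins and assembly factors of snoRNA particles are set beside the shares of all genes called lower. These were 13.7% in the first wild-type step and 12.5% in the second. Each list is too short for its share to be compared with them. Of 5 box C/D protein genes tested (Fbl, Nop56, Nop58, Snu13 and Rrp9), 2 fell in wild-type mesoderm against undifferentiated mESCs and 1 in HPCs against mesoderm. *Nop56*, a core protein and itself the host of Snord57 and Snord110, fell in both, by 1.07 (SE 0.29, adjusted p = 0.019) and 1.22 (SE 0.28, adjusted p = 0.0077), from 8.98 ± 0.209 CPM (n = 2) through 4.35 ± 1.44 (n = 3) to 1.87 ± 0.476 (n = 4). Of 4 box H/ACA protein genes, 1 fell in the first step, *Nhp2* by 1.44 (SE 0.32, adjusted p = 0.0074), and 0 in the second. Of 12 assembly factor genes, *Nufip1* fell in the first step by 1.37 (SE 0.31, adjusted p = 0.0079) and *Nolc1*, which binds both classes of particle, in the second by 1.17 (SE 0.28, adjusted p = 0.0085). In wild-type HPCs against undifferentiated mESCs, 4 of 5 box C/D protein genes, 2 of 4 box H/ACA protein genes and 7 of 12 assembly factor genes were called lower, beside 25% of all genes. None of these genes was called higher. Of 11 rows of small Cajal body RNAs and U3, relatives of snoRNAs, 7 were tested, of which 4 fell in the first step and 0 in the second. Without day 0, 3 of the 11 passed the filter in the mesoderm fit and 2 in the fit of 21 libraries. The falls from day 0 therefore describe the 7 rows and support nothing further.

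Accessible chromatin was found at most host promoters. Per the study's methods, its ATAC-seq cells were of another line, E14-TG2a-RV. This line carried a Venus reporter at *Runx1* and an mCherry reporter of a *Runx1* enhancer in *Col1a1*. More libraries and experiments were merged for mesoderm than for HPCs, so the shares of the stages cannot be set against each other. In the study's peak lists, each from merged libraries, an ATAC-seq peak of wild-type mesoderm lay within 500 bases of the start of 68 of 72 host rows (94.4%), beside 64.8% of the other 19458 rows with counts, and a peak of HPCs at 53 (73.6%), beside 43.8%. Peaks overlapped the snoRNA itself at Snord13, Snord104 and Snord118 in mesoderm and at Snord13 and Snord118 in HPCs, 3 of the 4 rows without a host, and at no hosted snoRNA. CTCF peaks of the hematopoietic cell line 416B lay at the start of 12 of 72 hosts (16.7%), beside 11.1% of the other rows, and over Snora17, Snora44 and Snord32a. These overlaps are descriptions and were not tested.

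Libraries within a group differed. Between the technical replicates of undifferentiated mESCs, 16 of the 86 snoRNAs with at least 20 counts over both were more than 2 times higher in CPM in the first and 6 in the second. The second HPC library of each duplicated clone held more snoRNA reads than the first. For the wild-type clone B9.3 the sums were 5.07 and 12.2 CPM, and 1.67% and 3.10% of host counts. For the P2-CTCF-KO clones D10.1 and D2.1 the sums were 6.59 and 9.52, and 5.58 and 12.9 CPM. The sums of the defining stage markers followed the labels. The summed CPM of Pou5f1, Nanog, Sox2, Zfp42 and Esrrb was 35.4 and 38.4 at day 0 and at most 3.92 later. That of 5 mesoderm markers (Kdr, T, Eomes, Mesp1 and Pdgfra) was 24.7 to 74.7 in mesoderm and at most 19.5 in HPCs. That of 6 HPC markers (Itga2b, Tal1, Runx1, Gfi1b, Gata1 and Kit) was 78.0 to 260 in HPCs and at most 25.9 in mesoderm. Of these 6, 1 lay lower in HPCs than in mesoderm in wild-type cells and 1 in P1-CTCF-KO (Kit, log2 fold change -1.12, SE 0.65). P2-CTCF-KO mesoderm had HPC markers at 3.58 to 10.4 CPM, beside 18.2 to 25.9 in wild-type. Its mesoderm markers were at 61.2 to 74.7, beside 24.7 to 44.4. The part of this difference in the genotype comparisons was not tested. Markers of other cell types (endothelium, heart, leukocytes, endoderm and neural cells, 10 genes) summed to 2.07 and 2.30 CPM at day 0, 0.344 to 40.0 in mesoderm and 5.81 to 33.0 in HPCs, and their part in the results was not tested.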

How the data were processed

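The deposited table held whole-number read counts per gene over exons and introns, with no normalization. Per the study's methods, the authors aligned poly(A)-minus reads to mm9 with STAR, removed duplicate reads with picard and counted with featureCounts. The strand setting is not given in the sources used here. Removal of duplicates limits the counts of short, abundant RNAs such as snoRNAs.

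The snoRNA rows, hosts and gene lists were chosen with earlier results of these data known. Rows spanning over 2.5 Mb or several loci were left out of the snoRNA totals. Named snoRNAs were the 8 of each class with the most counts, up to 5 called per direction and comparison, their hosts, snoRNAs of rRNA cleavage, imprinted orphans and called particle genes.

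Tests used edgeR 4.0.16 in R 4.3.3 (quasi-likelihood, TMM, filterByExpr with a minimum count of 10, Benjamini-Hochberg adjustment), fitted over all genes in 9 wild-type libraries, in 21 libraries without day 0, or in those of 1 stage. DESeq2 1.42.0 was an alternative. The adjusted p-values measure the spread between these libraries, of which the 2 of day 0 are technical. Among HPCs, clones B9.3, D10.1 and D2.1 entered more than once. The main fits had no term for the clone, so repeats of a clone were treated as independent. On simulated counts with 200 changed genes, 94 were called for wild-type HPCs against mesoderm over 12899 genes, with 2 unchanged genes called. The changed genes were drawn from rows with a mean of at least 10 counts, and some changes lay at the fold limit itself. Libraries were simulated as independent. Most snoRNAs had fewer counts after day 0, so the rate of recovery was not measured for them. The groups of mesoderm and HPCs share clones by label, and the correlation of same-clone deviations over 12543 genes was -0.0661 to 0.182.

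Python 3.11.15 read sequences from the NCBIM37 genome and counted overlaps with the authors' peak lists, of which only positions were used. Intervals and the floor of 3 counts cover counting error only.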

Additional observations from a re-analysis of the deposited data

Results flagged for a closer look

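Of 63 groups of values examined, 6 had a library far from the rest of its group (Dixon's test at the 95% level). Chance flags about 1 in 20 groups of continuous normal values, a rate that does not hold for rows of a few reads. Where all other libraries have 0, any read is flagged. In P2-CTCF-KO HPCs, 34 snoRNAs had a count in library D10.1, against 54 to 56 in the other 4 libraries. In wild-type HPCs, Snora74a was at 0.0986 CPM in C6.1, which is 1 read, and at 0.25 to 0.258 in the others, also on few reads. The remaining 4 rest on 1 or 2 reads where the other libraries of the group had 0: Snora33 at 0.192 CPM in P2-CTCF-KO HPC library D10.1-2, Snora33 and Snord14c at 0.0833 CPM each in wild-type HPC library C8.1, and Snord13 at 0.0859 CPM in wild-type HPC library B9.3.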

How the results depend on the processing

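Numbers of called snoRNAs moved with the setting where the counts were low. For wild-type mesoderm against undifferentiated mESCs, 22 became 11 with DESeq2 and 7 with the libraries of a clone summed, and lay between 2 and 20 when single libraries were left out (2 and 6 without the first or second day 0 library, 12 and 13 without mesoderm C8.1 or B9.3). For wild-type HPCs against undifferentiated mESCs, 49 became 27 and 19 in those fits, and lay between 16 and 46 with single libraries left out (16 and 20 without a day 0 library, 31 and 32 without HPC B9.3 or C8.1). For wild-type HPCs against mesoderm, 2 became 1 with library sizes that left out ribosomal RNA and multi-locus rows, and lay between 1 and 3 with single libraries left out. The cause was not tested.

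In fits of 1 genotype with the clone as replicate block, 0 snoRNAs were called in wild-type cells, where 0 passed the filter, and 0 in P2-CTCF-KO. The same fits without the block gave 0 and 1. The block with no filter, chosen after seeing the data as were the fits without the block, gave 2 in wild-type cells, 1 in P1-CTCF-KO and 0 in P2-CTCF-KO. For P1-CTCF-KO HPCs against mesoderm, 0 became 2 with no filter and 6 with all 23 libraries in 1 fit, and lay between 0 and 1 with single libraries left out. For P2-CTCF-KO, 2 became 5 in both fits and lay between 0 and 2, with 0 without mesoderm D2.1 and 1 without E9.1. In the genotype and step comparisons 0 were called under every alternative run. In HPCs the alternatives that kept the main filter, DESeq2 among them, had no snoRNA to test. Their 0 calls were therefore fixed in advance and support nothing further. All 86 medians by class, from the alternatives run for the wild-type stage comparisons, kept their direction. A median was given only where at least 10 snoRNA rows were tested, which left out both KO stage steps. Most of these rows passed the filter through day 0, so their direction against it supports nothing further. With host counts taken less those of the snoRNAs, the ratio to length share at day 0 was 3.40.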
